A study of Homo sapiens with 9 samples.

Results

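Definitive endoderm made in the presence of C75 from the human embryonic stem cell line HUES8, an established line, was compared with definitive endoderm made without an inhibitor. C75 is an inhibitor of fatty acid synthase, the enzyme that builds long-chain fatty acids. The comparison took 6 of the 9 RNA sequencing libraries of the series, 3 labelled C75 and 3 labelled DE, chosen by their labels alone, and 14177 of the 19907 genes in the count table had enough reads to be tested. Cells of all groups were wild type. For 2 days all received 100 ng/mL activin A, 50 ng/mL Wnt-3a and fatty-acid-free albumin (0.2%), and then 1 to 2 days without the Wnt-3a. The DE group had no inhibitor. The remaining 3 libraries, labelled ETO, came from cells whose fatty acid oxidation was inhibited, and were used here for the side-by-side values and for the direct test of C75 against ETO. The labels give no dose of either inhibitor, no start or length of the treatment and no day of harvest, and 1 cell line stands for all. Whether the 3 libraries of each group came from separate cultures is not said there, and the p-values therefore reflect only how these libraries vary, which may be technical.

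Definitive endoderm is the embryonic layer that forms the gut tube, liver and pancreas. Activin A acts through the NODAL receptors to induce it, while WNT, FGF and BMP signals set how cells leave the pluripotent state and whether they turn to endoderm or mesoderm. Fatty acid synthase uses malonyl-CoA and NADPH to make palmitate, which feeds membrane lipids, and its genes are controlled by the SREBP factors together with those of sterol synthesis. Liver X receptors, which sense oxysterols, induce the sterol exporters and SREBF1.

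The DE libraries held 17379711 to 20812616 counts and the C75 libraries 18320778 to 18895819, and no 2 libraries of a group were duplicates by a count comparison. Levels are given as CPM, the counts of a gene relative to the total of its library, after scaling between libraries. With edgeR's quasi-likelihood test and Benjamini-Hochberg adjustment over all genes tested, 4422 genes (31.2%) were higher in C75 and 4524 (31.9%) were lower at an adjusted p below 0.05. Genes past this threshold are referred to as called. Of these, 380 genes (2.68%) were at least 2-fold higher and 924 (6.52%) at least 2-fold lower. A value marked log2 after a gene is its log2 fold change of C75 against DE. The median log2 fold change over all genes was −0.005. The libraries of the groups did not overlap for 366 of the 380 and 893 of the 924 genes. No share over all genes tested is given beside these counts. Genes picked as called and changed 2-fold tend to be apart, so the counts are no separate support. Genes changed 2-fold were mostly of low expression: their median level was 3.35 CPM for the higher and 1.66 CPM for the lower genes, against 26.4 CPM over all genes tested. Among the 25% of genes with the lowest mean CPM, 6.4% were 2-fold higher and 19.4% 2-fold lower, and among the 25% with the highest mean CPM the shares were 0.875% and 0.79%. Together the 380 genes made up 0.56% of the summed CPM in DE and 1.49% in C75, and the 924 genes 1.55% in DE and 0.581% in C75.

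The label of the cells was checked on marker genes. Summed CPM of 15 definitive endoderm markers was 11000 to 11440 in the DE libraries and 17080 to 17510 in the C75 libraries, with 13 of the 15 called higher and 1 lower. CER1 alone averaged 7034 CPM in DE and 11410 CPM in C75, and so made up most of both sums. Other members changed less, SOX17 having 43658 counts over the DE libraries and 44126 over the C75 libraries. Markers of other cells were counted in the same way. Of 12 mesoderm markers, 9 were tested, 5 were lower and 0 higher (1 higher without C75 replicate 3 or without ETO replicate 2), and they summed to 246.7 to 254.3 CPM in DE and 144.9 to 146.1 CPM in C75. Of 11 ectoderm and neural markers, 8 were tested, 5 were higher and 3 lower, with sums of 819.4 to 831.4 CPM in DE and 942.6 to 964.6 CPM in C75. The largest members of this list moved apart. OTX2 had 21099 counts over the DE libraries and 31207 over the C75 libraries, and NES 21084 and 14066, so the sum does not stand for most members. Of 15 markers of trophoblast, amnion and visceral endoderm, 10 were tested, 1 was higher and 5 lower, with sums of 133.7 to 141.6 CPM in DE and 110.8 to 115.9 CPM in C75. Of these lists, MEOX1, NEUROD1, CGA and CGB5 had 0 counts in all 6 libraries, and FOXF1, SOX1, AFP and TTR had 0 counts in C75. Of 14 pluripotency markers, 4 were higher and 9 lower, and they summed to 4708 to 4832 CPM in DE and 4374 to 4453 CPM in C75. The 4 that were 2-fold lower were POU5F1, which fell from 295 to 61.6 CPM (log2 −2.26), NANOG from 55 to 19.6 CPM (log2 −1.49), SOX2 from 23 to 3.38 CPM (log2 −2.76) and UTF1 from 3.47 to 0.203 CPM (log2 −4.02). The part of these cells in the results was not tested, and in bulk RNA fewer cells of a type cannot be told apart from less RNA per cell. In 46 gene lists, counts of called members are given below over the members with enough reads to be tested, and are read against the background shares of 31.2% higher and 31.9% lower.

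**Figure D1:**
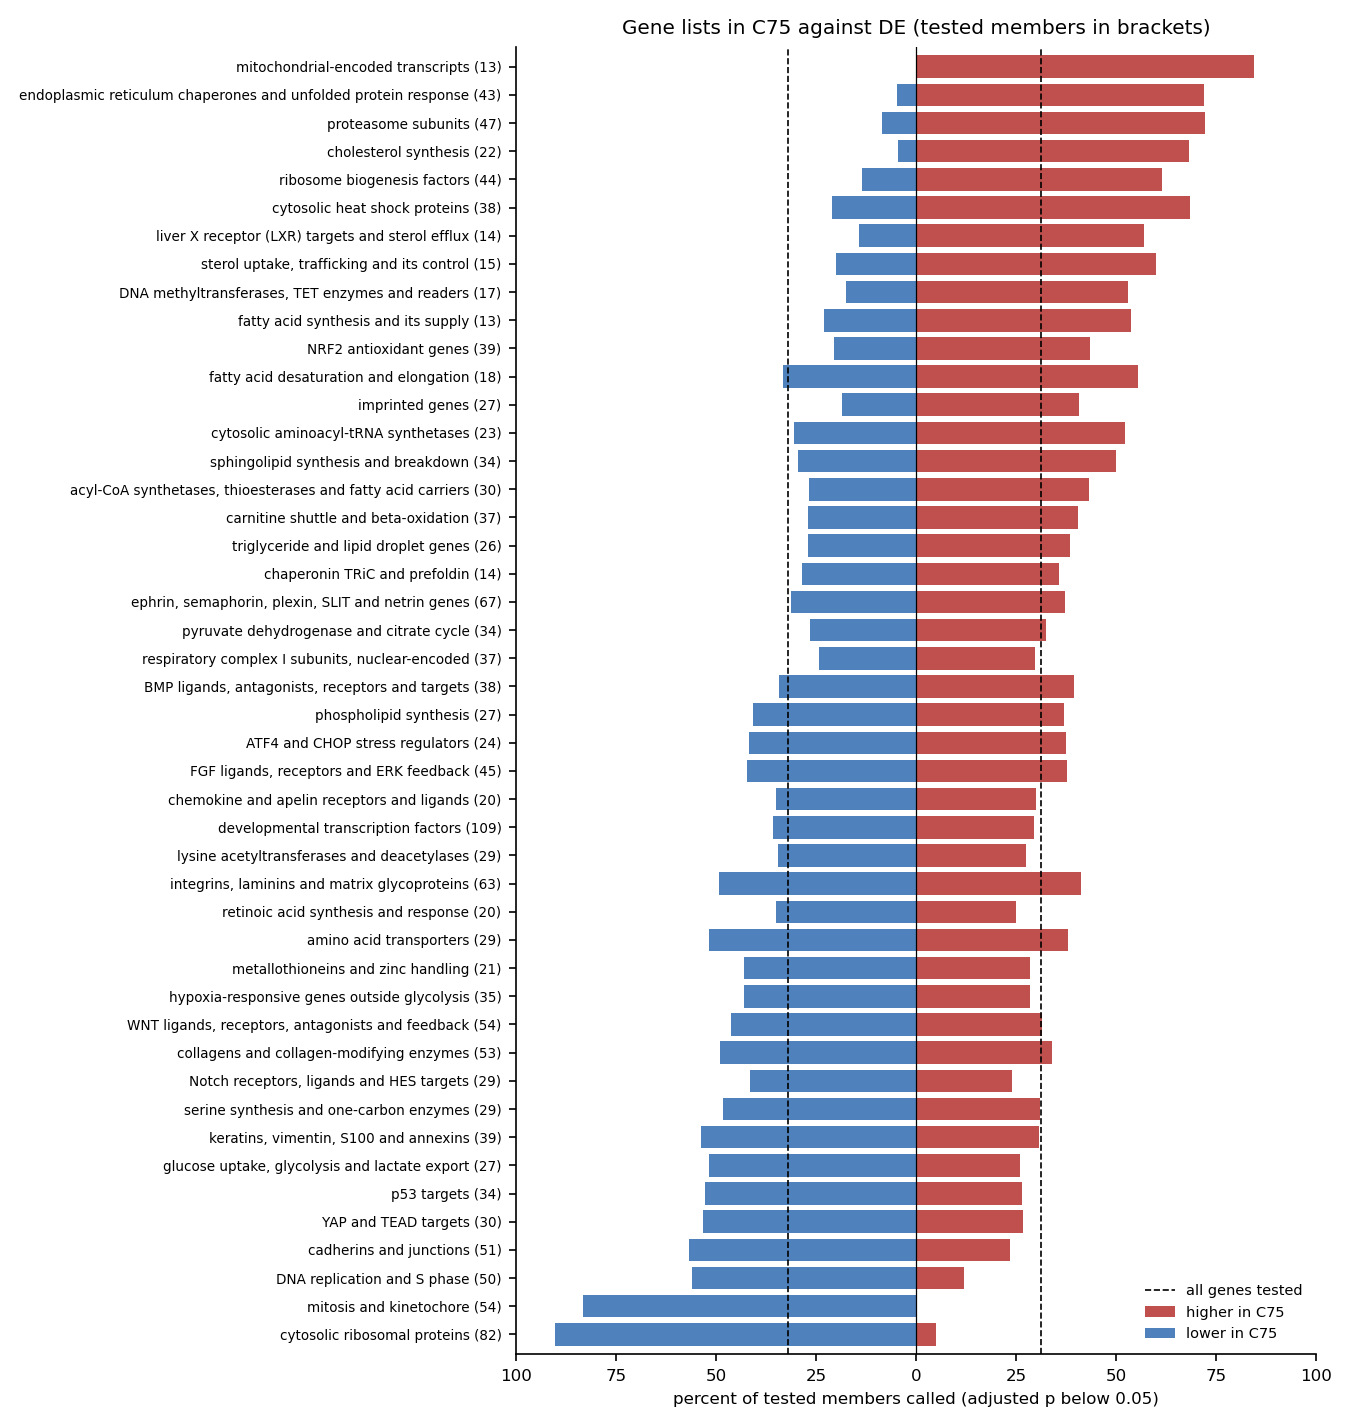
Percent of tested members of 46 gene lists called higher (right) or lower (left) in C75 than in DE, with the number tested in brackets and dashed lines at the shares over all genes tested (31.2% and 31.9%). Mitochondrial-encoded, endoplasmic reticulum, proteasome and cholesterol synthesis lists lie at the top, and mitosis and cytosolic ribosomal protein lists at the bottom.

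The gene of the enzyme that C75 inhibits rose slightly, and most genes that supply it with substrate were called in small steps. FASN, which encodes fatty acid synthase itself, was at 1496, 1465 and 1437 CPM in DE and 1781, 1652 and 1808 CPM in C75 (log2 fold change 0.25, SE 0.0319, adjusted p = 2.15e-08). Its libraries did not overlap, and the rise was small. Of 13 genes of fatty acid synthesis and its supply, 7 were higher and 3 lower (1 lower without DE replicate 1 or without C75 replicate 2), with a median log2 fold change of 0.18. ME1, the cytosolic malic enzyme that makes NADPH, had the largest rise of the list (log2 0.57).

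Among the targets of liver X receptors and the sterol exporters, ABCG1 rose most, followed by ABCG4, SREBF1 and ABCA1. ABCG1, which moves cholesterol out to lipoproteins, lies on chromosome 21 at 42199689 to 42297244, on the plus strand, of GRCh38. It was at 6.36, 5.54 and 5.98 CPM in DE and 52.4, 53.8 and 55.5 CPM in C75 (log2 fold change 3.17, SE 0.0803, adjusted p = 1.16e-26). Every C75 library was far above every DE library. ABCA1, the exporter that loads lipid-poor apolipoproteins, was at 189, 178 and 174 CPM in DE and 362, 354 and 352 CPM in C75 (log2 fold change 0.98, SE 0.0359, adjusted p = 3.29e-22). SREBF1, which encodes the lipogenic factor SREBP-1, was at 107, 108 and 103 CPM in DE and 222, 199 and 224 CPM in C75 (log2 fold change 1.02, SE 0.0418, adjusted p = 8.46e-21). The groups did not overlap for either gene, and the C75 levels were about 2-fold those of DE. In all, 8 of 14 liver X receptor targets and efflux genes were higher and 2 lower (1 lower without DE replicate 3), with a median log2 fold change of 0.29. ABCG4, a relative of ABCG1, rose from 5.28 to 12.6 CPM on average. NR1H2, which encodes the beta form of the receptor, was lower (log2 −0.39). ABCG1 was at 3.68, 3.97 and 3.41 CPM in ETO, below its C75 level (log2 difference 3.87, SE 0.0868, adjusted p = 2.06e-29 for C75 minus ETO), and ABCA1 at 69, 65.8 and 63.6 CPM in ETO (log2 difference 2.43, SE 0.0395, adjusted p = 1.68e-33).

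Cholesterol synthesis genes rose by small amounts along most of the pathway. Of 22 enzymes, 15 were higher and 1 lower, with a median log2 fold change of 0.24, and none reached 2-fold. The lower count was 2 without C75 replicate 2. NSDHL, which removes the methyl groups at carbon 4 of the sterol ring, was at 42.9, 40.3 and 43.1 CPM in DE and 83.4, 75.2 and 81.3 CPM in C75 (log2 fold change 0.92, SE 0.0507, adjusted p = 3.05e-17). Its C75 libraries all lay above its DE libraries. MVK and MVD, early enzymes of the mevalonate pathway, rose (log2 0.62 and 0.49), as did TM7SF2, a sterol reductase (log2 0.63), and DHCR7, which makes cholesterol in the last step of one branch (log2 0.48). The exception in direction was GGPS1, which makes geranylgeranyl diphosphate outside the sterol branch, at 36.9, 35.7 and 35.6 CPM in DE and 22.5, 25.3 and 27.2 CPM in C75 (log2 fold change −0.53, SE 0.0679, adjusted p = 3.37e-08).

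Sterol uptake and its control showed 9 higher and 3 lower (1 lower without C75 replicate 3) of 15 genes. SOAT1, which esterifies cholesterol for storage, rose (log2 0.62). SREBF2, which encodes the sterol-sensing factor SREBP-2, was lower (log2 −0.16).

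Fatty acid desaturation and elongation genes moved both ways. ELOVL2, which elongates polyunsaturated fatty acids, was at 157, 143 and 144 CPM in DE and 276, 276 and 274 CPM in C75 (log2 fold change 0.90, SE 0.0373, adjusted p = 1.15e-20). ELOVL6, which extends palmitate to stearate, was at 117, 119 and 122 CPM in DE and 77.9, 84.1 and 82 CPM in C75 (log2 fold change −0.56, SE 0.0431, adjusted p = 2.84e-13). Both had groups that did not overlap. FADS2, the delta-6 desaturase, rose (log2 0.56), while ELOVL5 and HACD3 fell (log2 −0.24 and −0.48). Over the list, 10 of 18 were higher and 6 lower.

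Acyl-CoA and carrier genes had 13 higher and 8 lower of 30. SLC27A2, a very-long-chain acyl-CoA synthetase of peroxisomes and liver, was at 1.28, 1.77 and 1.75 CPM in DE and 6.25, 7.54 and 5.16 CPM in C75 (log2 fold change 1.99, SE 0.204, adjusted p = 2.41e-10). ACSL1, which activates long-chain fatty acids, was at 10.1, 11 and 11 CPM in DE and 30.1, 28.4 and 30.1 CPM in C75 (log2 fold change 1.47, SE 0.081, adjusted p = 3.54e-17). Conversely, FABP5, a cytosolic fatty acid carrier, was at 131, 144 and 136 CPM in DE and 58.1, 60.6 and 53.1 CPM in C75 (log2 fold change −1.26, SE 0.0452, adjusted p = 2.39e-22). The groups did not overlap for any of these genes. ACSL4, which prefers arachidonate, fell (log2 −0.66).

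Among 37 genes of the carnitine shuttle and beta-oxidation, 15 were higher and 10 lower, with a median log2 fold change of 0.06. PPARGC1A, a coactivator that drives mitochondrial and oxidative genes, was at 3.37, 1.83 and 2.75 CPM in DE and 12.8, 10.5 and 9.99 CPM in C75 (log2 fold change 2.04, SE 0.167, adjusted p = 1.05e-12), all C75 libraries above all DE libraries. ACADVL, the mitochondrial very-long-chain dehydrogenase, rose (log2 0.65). CPT1A, which admits long-chain fatty acids to mitochondria, fell from 39.9 to 25.2 CPM (log2 −0.66), as did EHHADH, a peroxisomal bifunctional enzyme (log2 −0.60).

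Storage and membrane lipid genes were mixed. In the triglyceride and lipid droplet list, 10 of 26 were higher and 7 lower, PNPLA3, a lipogenic lipase, rising (log2 1.01) and HILPDA, a droplet protein induced by hypoxia, falling (log2 −0.65). Phospholipid synthesis had 10 higher and 11 lower of 27. The genes of both rate-limiting enzymes of the CDP pathways rose, PCYT1A for phosphatidylcholine from 63.7 to 109.9 CPM (log2 0.79) and PCYT2 for phosphatidylethanolamine from 60.1 to 98.3 CPM (log2 0.71), as did the cardiolipin synthase gene CRLS1 (log2 0.81). Sphingolipid genes had 17 higher and 10 lower of 34. SPHK1, which makes sphingosine 1-phosphate, rose (log2 1.23), and UGT8, which makes galactosylceramide, fell from 12.1 to 4.58 CPM (log2 −1.39).

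Glycolysis genes fell more often than they rose, although the pyruvate kinase transcript nearly doubled. PKM, which encodes the muscle-type pyruvate kinase, was at 1800, 1821 and 1854 CPM in DE and 3467, 3478 and 3547 CPM in C75 (log2 fold change 0.94, SE 0.0265, adjusted p = 2.79e-25). The C75 libraries were all well above the DE libraries. Of 27 genes, 7 were higher and 14 lower. ENO2, the neuronal enolase, was at 34.5, 34.6 and 36.9 CPM in DE and 12.1, 13.7 and 10.3 CPM in C75 (log2 fold change −1.55, SE 0.0778, adjusted p = 2.43e-18), and ALDOC, the brain aldolase, fell (log2 −1.09). ENO3, the muscle enolase, rose (log2 0.75). The glucose transporter gene SLC2A3 and the hexokinase gene HK1 fell (log2 −0.28 and −0.49), as did SLC16A3, a lactate exporter (log2 −0.67).

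At the entry to the citrate cycle, 1 kinase gene stood out. PDK1, which encodes a kinase that switches off pyruvate dehydrogenase, lies on chromosome 2 at 172555373 to 172608669, on the plus strand. It was at 72.8, 71.4 and 72.2 CPM in DE and 14.8, 11.7 and 14.1 CPM in C75 (log2 fold change −2.41, SE 0.0623, adjusted p = 1.74e-26), with no overlap. Of its relatives, PDK3 was at 8.59, 8.4 and 9.36 CPM in DE and 8.79, 8.36 and 7.3 CPM in C75 and was not called (adjusted p = 0.396), and PDK4 was under 1 CPM in all 6 libraries. PDK2 was at 13.4, 14.9 and 13.5 CPM in DE and 17, 13.4 and 18.8 CPM in C75, with groups that overlapped (log2 fold change 0.24, SE 0.0989, adjusted p = 0.0367), and its call was lost without DE replicate 1 or 3 and without C75 replicate 1 or 3. PDK1 was at 116, 118 and 112 CPM in ETO, and C75 was lower than ETO (log2 difference −3.09, SE 0.0592, adjusted p = 1.72e-31). In the whole list of pyruvate dehydrogenase and citrate cycle genes, 11 of 34 were higher (7 without C75 replicate 1) and 9 lower. IDH2, the mitochondrial NADP-dependent isocitrate dehydrogenase, fell from 39.6 to 21.1 CPM (log2 −0.91), and IDH1, its cytosolic counterpart, rose from 968 to 1419 CPM (log2 0.55). The pyruvate carboxylase gene PC rose (log2 0.56).

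PDK1 is also a target of the hypoxia-inducible factors, and the other hypoxia-responsive genes moved both ways. Of 35, 10 were higher (5 without C75 replicate 1 and 6 without C75 replicate 2) and 15 lower. STC2, LOXL2 and BNIP3L fell (log2 −1.34, −1.08 and −0.81). Against that, BHLHE40, a repressor induced by hypoxia, rose from 94.9 to 201 CPM (log2 1.08), and AK4 and CA12 rose (log2 0.68 and 1.56).

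Among amino acid supply genes, PHGDH and ASNS fell and MAT2A rose. PHGDH, the first enzyme of serine synthesis, was at 122, 134 and 142 CPM in DE and 64.9, 68.4 and 69.5 CPM in C75 (log2 fold change −0.97, SE 0.0462, adjusted p = 5.79e-19). ASNS, asparagine synthetase, was at 56.6, 62.3 and 67.4 CPM in DE and 25.4, 29.2 and 27.8 CPM in C75 (log2 fold change −1.18, SE 0.0597, adjusted p = 3.46e-18). MAT2A, which makes S-adenosylmethionine, was at 96.7, 104 and 99.3 CPM in DE and 192, 194 and 183 CPM in C75 (log2 fold change 0.93, SE 0.0396, adjusted p = 2.76e-20). The groups did not overlap for these genes, the former pair being lower and the last higher in C75. Of 29 serine and one-carbon enzymes, 9 were higher and 14 lower, and of 29 amino acid transporters, 11 were higher and 15 lower. Both chains of the large neutral amino acid transporter rose, SLC7A5 from 1219 to 2032 CPM (log2 0.74) and SLC3A2 from 503 to 705 CPM (log2 0.49). SLC1A3, a glutamate transporter, fell from 9.43 to 1.33 CPM (log2 −2.83), and SLC7A8, a second light chain for neutral amino acids, from 58.5 to 24.6 CPM (log2 −1.25).

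The stress regulators around ATF4 did not move as a group, with 9 higher and 10 lower of 24. DDIT3, which encodes CHOP, was at 5.08, 4.91 and 5.77 CPM in DE and 9.63, 10.7 and 8.4 CPM in C75 (log2 fold change 0.87, SE 0.128, adjusted p = 4.46e-07), and ATF5 rose from 11.9 to 24.3 CPM (log2 1.03). GDF15, a secreted stress factor, was at 2.52, 3.03 and 2.54 CPM in DE and 0.507, 0.605 and 0.165 CPM in C75 (log2 fold change −2.64, SE 0.285, adjusted p = 7.94e-10). CHOP and ATF5 libraries were higher and GDF15 libraries lower in C75, with no overlap. ASNS was at 222, 230.4 and 217 CPM in ETO and PHGDH at 354, 338 and 354 CPM in ETO, and C75 was lower than ETO for ASNS (log2 difference −3.02, SE 0.0534, adjusted p = 1.58e-32) and PHGDH (log2 difference −2.37, SE 0.044, adjusted p = 6.96e-32).

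**Figure D2:**
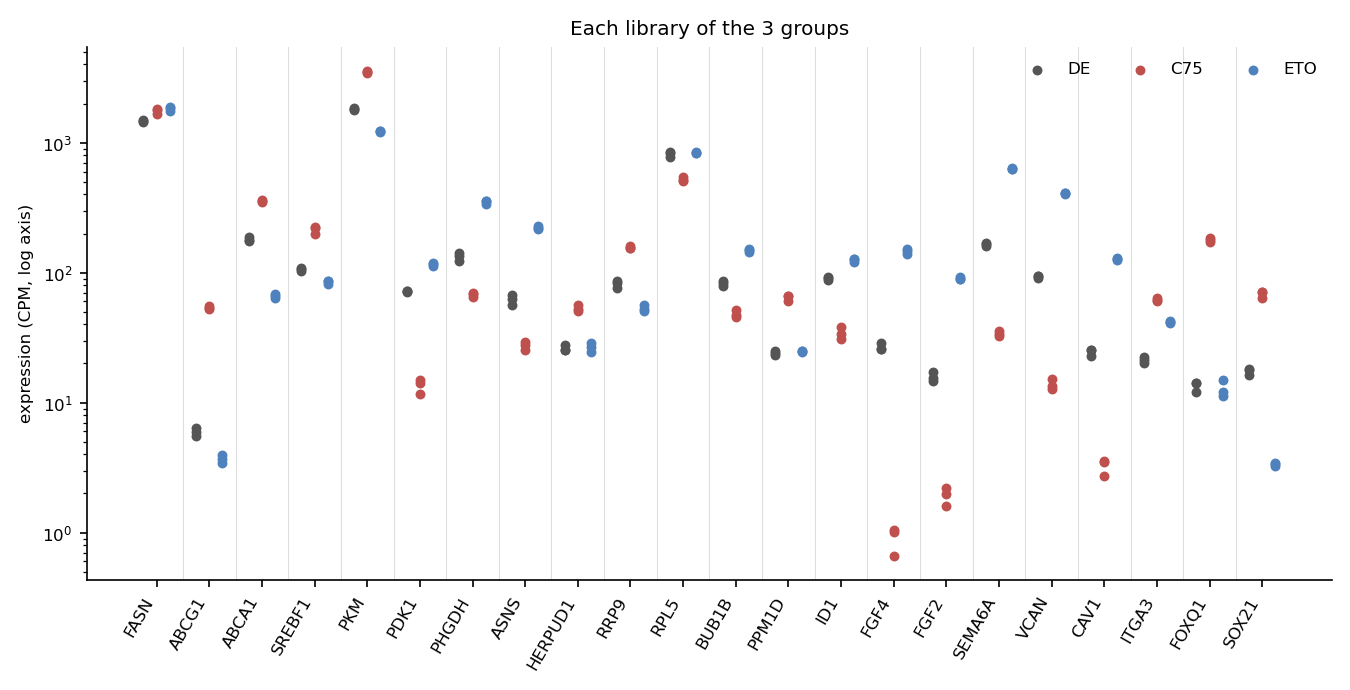
Expression in CPM on a log axis of 22 genes described in the text, 1 point for each library of DE (grey), C75 (red) and ETO (blue). For each gene the 3 C75 points lie apart from the 3 DE points, from ABCG1 (5.54 to 6.36 in DE, 52.4 to 55.5 in C75) to FGF4 (25.7 to 29 in DE, 0.66 to 1.04 in C75).

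Antioxidant genes of the NRF2 list had 17 higher and 8 lower of 39. GPX2 and GPX3, glutathione peroxidases, rose (log2 1.82 and 0.88), as did the quinone reductase gene NQO1 (log2 0.70), and OSGIN1 fell (log2 −2.06). Among zinc-responsive genes, metallothioneins and the zinc exporter fell. MT1X, a metallothionein, was at 3.47, 4.4 and 3.6 CPM in DE and 0.62, 0.33 and 0.439 CPM in C75 (log2 fold change −3.02, SE 0.243, adjusted p = 7.13e-13), and SLC30A1, the zinc exporter that metallothioneins accompany in the response to zinc, was at 16.3, 16.9 and 16 CPM in DE and 4.68, 7.15 and 5.88 CPM in C75 (log2 fold change −1.47, SE 0.105, adjusted p = 3e-14). Both were lower in every C75 library. MT1E and MT2A fell (log2 −2.28 and −1.43), and the whole list had 6 higher and 9 lower of 21, SLC39A8, a zinc importer, rising (log2 0.75). Metallothionein genes are near-identical copies, so reads may be shared between them and their values are uncertain.

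Genes of protein folding in the endoplasmic reticulum rose as a broad group in C75. Of 43 chaperone and unfolded protein response genes, 31 were higher and 2 lower, with a median log2 fold change of 0.34. HERPUD1, which helps degrade misfolded proteins, lies on chromosome 16 at 56932048 to 56944863, on the plus strand. It was at 27.7, 25.4 and 25.5 CPM in DE and 50.6, 52.4 and 56.8 CPM in C75 (log2 fold change 1.02, SE 0.0635, adjusted p = 8.42e-16). CRELD2, a secreted protein induced by endoplasmic reticulum stress, was at 47.9, 54.3 and 51.9 CPM in DE and 92.2, 103 and 107 CPM in C75 (log2 fold change 0.97, SE 0.0528, adjusted p = 2.18e-17). Neither gene had any overlap between the groups. HSPA5, the main chaperone BiP, rose from 1217 to 1726 CPM (log2 0.50), and HSP90B1, its HSP90 counterpart, from 1835 to 2418 CPM (log2 0.40). CANX and CALR, the lectin chaperones, rose (log2 0.40 and 0.29), as did SEC61A1, the translocation channel (log2 0.64). XBP1, which encodes a factor of the response, was at 122, 131 and 134 CPM in DE and 129.6, 131 and 128 CPM in C75 and was not called (adjusted p = 0.812). The lower genes were CRELD1 (log2 −0.34) and SEL1L (log2 −0.32).

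The promoters of these chaperone genes hold letters of the endoplasmic reticulum stress element, in which a CCAAT box stands 9 bases before CCACG. Promoter windows of 300 bases, from 250 before to 50 after the gene start, were taken from RefSeq on GRCh38.p14, and 40 of the 43 tested members had one. Both CCAAT and CCACG occurred, on either strand, in 23 of the 40 windows (57.5%), against 12.5% of all 27305 windows of the table and 16.9% of the 11489 windows of genes tested. Other lists also had high shares, with 47.1% for cholesterol synthesis, 41.7% for chaperonin and prefoldin and 40.9% for serine and one-carbon genes. The share was 37.8% for mitosis genes, 30.6% for ribosome biogenesis genes and 2.33% for collagen genes. The spacing of 9 bases was a form added after the values were seen. With it, the pair was found in 6 of the 40 windows (15%), against 22 of all windows (0.0806%). The 6 genes were HSPA5, HSP90B1, CALR, CANX, XBP1 and CRELD2, of which all but XBP1 rose. Among windows of genes tested the pair was in 14 (0.122%), and those outside the list are not described here. The list was made up of known genes of this response, so these matches are no separate support. A match is a description of these letters and not a measured binding site. The windows of 4 genes are shown to let the spacing be seen, 5′ to 3′ in the direction of the gene, with CCAAT (or its reverse complement ATTGG) in capitals, and CCACG (or its reverse complement CGTGG) as well. They cover chr9:125241294-125241593 (minus strand), chr12:103930160-103930459, chr22:49918384-49918683 and chr16:56931892-56932191 (plus strand).
HSPA5: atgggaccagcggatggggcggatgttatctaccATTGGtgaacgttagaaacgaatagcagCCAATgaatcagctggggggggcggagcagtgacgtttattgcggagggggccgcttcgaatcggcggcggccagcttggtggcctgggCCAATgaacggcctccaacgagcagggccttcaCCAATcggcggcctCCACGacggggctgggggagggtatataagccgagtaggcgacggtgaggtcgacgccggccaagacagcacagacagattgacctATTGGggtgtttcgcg
HSP90B1: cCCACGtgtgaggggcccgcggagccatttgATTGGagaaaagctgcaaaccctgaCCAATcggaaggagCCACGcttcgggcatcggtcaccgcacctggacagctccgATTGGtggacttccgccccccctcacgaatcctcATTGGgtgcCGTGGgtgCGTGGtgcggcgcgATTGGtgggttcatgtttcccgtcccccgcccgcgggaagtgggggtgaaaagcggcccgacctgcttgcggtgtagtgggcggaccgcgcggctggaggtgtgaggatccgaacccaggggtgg
CRELD2: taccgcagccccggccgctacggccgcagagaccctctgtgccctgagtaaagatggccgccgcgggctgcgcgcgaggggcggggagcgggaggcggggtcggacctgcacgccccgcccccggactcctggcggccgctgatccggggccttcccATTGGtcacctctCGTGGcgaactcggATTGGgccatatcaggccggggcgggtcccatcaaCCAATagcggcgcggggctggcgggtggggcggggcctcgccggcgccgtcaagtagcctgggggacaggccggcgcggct
HERPUD1: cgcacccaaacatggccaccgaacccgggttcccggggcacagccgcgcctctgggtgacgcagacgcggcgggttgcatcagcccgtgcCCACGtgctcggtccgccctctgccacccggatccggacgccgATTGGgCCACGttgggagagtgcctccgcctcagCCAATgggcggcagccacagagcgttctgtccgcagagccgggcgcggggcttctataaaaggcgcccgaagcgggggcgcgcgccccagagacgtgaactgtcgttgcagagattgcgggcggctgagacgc

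In the window of HERPUD1, the gene with the largest rise of the list, ATTGG and CCACG stand with 1 base between them, the arrangement of the second form of the element, and no pair stands at 9 bases. Motifs searched in the same way, on both strands, were spread more widely over the lists. CCAAT was in 70.6% of 17 windows of cholesterol synthesis genes and in 75.6% of those of mitosis genes, against 35.7% of all windows. The hypoxia core ACGTG was in 57.1% of 28 windows of the hypoxia list, in 52.8% of those of ribosome biogenesis and in 52.5% of those of the endoplasmic reticulum list, against 21.6% of all windows. The sterol element TCACNCCAC was in 0 of the 17 windows of cholesterol synthesis genes, against 1.15% of all windows. At so low a share, 0 matches in 17 windows is likely for any list. The count therefore does not show that these promoters lack sterol control.

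Most heat shock and proteasome genes were higher as well. Of 38 heat shock genes, 26 were higher and 8 lower (median log2 fold change 0.24). HSPA1A, the inducible HSP70, was at 89.6, 93.5 and 90.5 CPM in DE and 151, 154 and 172 CPM in C75 (log2 fold change 0.80, SE 0.0442, adjusted p = 3.41e-17), and its near-identical copy means that reads may be shared. HSPA8, the constitutive form, rose from 1189 to 1925 CPM (log2 0.70), as did BAG3 and HSPB8, which act together in clearing aggregates (log2 0.72 and 0.73). HSPA2, a testis-enriched member, fell (log2 −1.37). The chaperonin and prefoldin list had 5 higher and 4 lower of 14, and 2 lower without DE replicate 2 or 3, C75 replicate 3 or ETO replicate 1 or 3. Of 47 proteasome subunits, 34 were higher and 4 lower (median log2 fold change 0.28). PSMC4, an ATPase of the regulatory particle, was at 112, 114 and 111 CPM in DE and 167, 162 and 176 CPM in C75 (log2 fold change 0.58, SE 0.0389, adjusted p = 5.76e-15), and ADRM1, a ubiquitin receptor, and PSMD12 rose (log2 0.54 and 0.52).

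**Figure D3:**
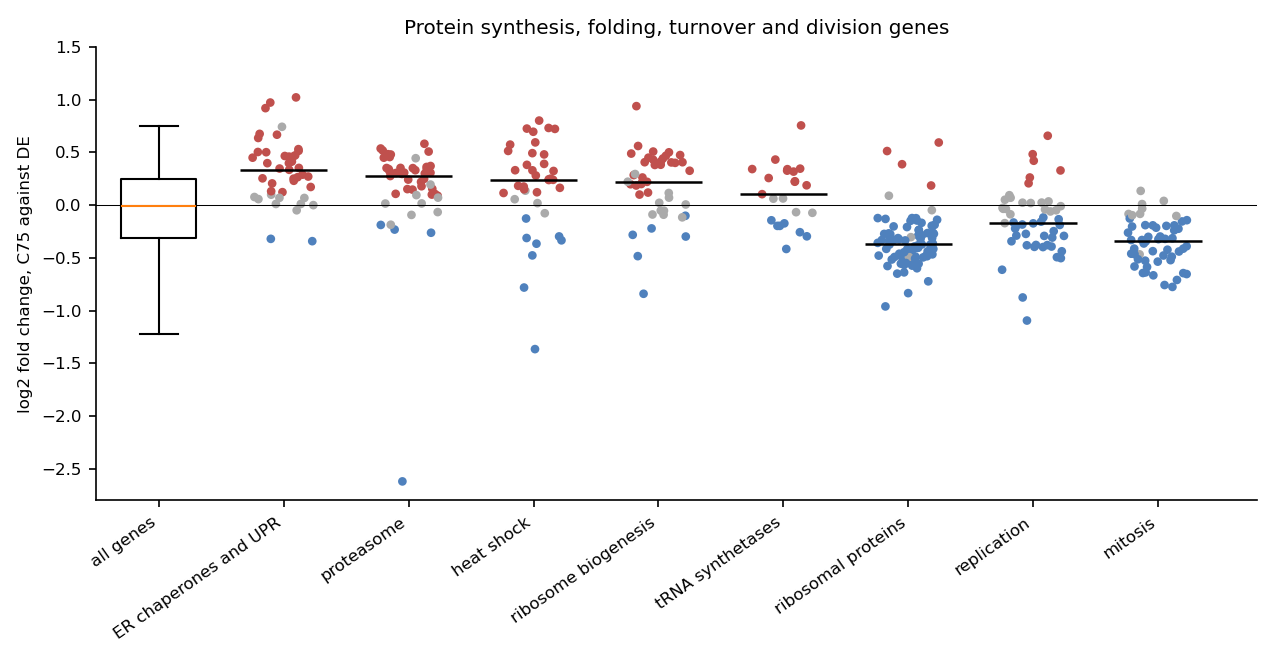
Log2 fold change of C75 against DE for every tested member of 8 lists (red called higher, blue called lower, grey not called, black bar the median), beside a box of all genes with whiskers at the 5th and 95th percentiles. Medians lie at 0.34 for endoplasmic reticulum genes, −0.37 for ribosomal proteins and −0.34 for mitosis, and the lowest proteasome point is the immunoproteasome gene PSMB8, with a mean of 0.263 CPM in DE and 0.0371 CPM in C75.

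Most factors that build ribosomes were higher, and most proteins of the ribosome itself were lower. Of 44 ribosome biogenesis factors, 27 were higher and 6 lower (median log2 fold change 0.22), and with upper-quartile scaling 10 were lower. RRP9, a protein of the U3 particle that processes ribosomal RNA, was at 76.3, 86.5 and 83.8 CPM in DE and 156, 156 and 159.9 CPM in C75 (log2 fold change 0.94, SE 0.0433, adjusted p = 2.36e-19). BYSL, NIP7 and NOP16 rose (log2 0.56, 0.51 and 0.50). Among the lower members of the list, MYC, a factor known to induce many of the others, was at 38.9, 43 and 39.1 CPM in DE and 21.6, 21.3 and 24.5 CPM in C75 (log2 fold change −0.84, SE 0.0643, adjusted p = 1.92e-13), lower in every C75 library. Of 82 cytosolic ribosomal protein genes, 4 were higher and 74 lower, with a median log2 fold change of −0.37. RPL5, of the large subunit, was at 782, 853 and 830.5 CPM in DE and 509.8, 548 and 513 CPM in C75 (log2 fold change −0.65, SE 0.0332, adjusted p = 3.79e-18). Together these genes took 5.09% to 5.57% of counts in the DE libraries and 3.91% to 4.06% in the C75 libraries, so the groups did not overlap. Ribosomal protein genes have many processed copies, and reads may be shared with them. The elongation factor gene EEF1A1, whose transcript belongs to the same 5′ TOP class, fell from 9564 to 8046 CPM (log2 −0.25). Aminoacyl-tRNA synthetases had 12 higher and 7 lower of 23, the histidyl enzyme HARS rising (log2 0.76).

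Division genes were lower. Of 54 mitosis and kinetochore genes, 0 were higher and 45 lower, with a median log2 fold change of −0.34 and none at 2-fold. BUB1B, a spindle checkpoint kinase, was at 86.4, 78.4 and 82.6 CPM in DE and 51.9, 46.8 and 45.9 CPM in C75 (log2 fold change −0.78, SE 0.0489, adjusted p = 1.22e-15). NUF2, of the kinetochore, and ECT2, which drives cytokinesis, fell (log2 −0.71 and −0.65), as did CENPE, a kinetochore motor (log2 −0.59). Of 50 replication genes, 28 were lower and 6 higher. WDHD1, which links polymerase alpha to the helicase, was at 73.4, 82.1 and 84.7 CPM in DE and 34.2, 41.8 and 36.2 CPM in C75 (log2 fold change −1.10, SE 0.0581, adjusted p = 1.16e-17), while POLA2 and RFC3, a polymerase subunit and a clamp loader subunit, rose (log2 0.66 and 0.48). Targets of p53 were lower for 18 and higher for 9 of 34 genes. PPM1D, a phosphatase that turns p53 signalling off, was at 25.1, 23.4 and 24.3 CPM in DE and 65.9, 60.4 and 66 CPM in C75 (log2 fold change 1.40, SE 0.058, adjusted p = 1.13e-20), whereas PMAIP1, a death-promoting target, fell from 34.8 to 13.3 CPM (log2 −1.38). PPM1D was at 24.4, 25.1 and 24.9 CPM in ETO (log2 difference 1.37, SE 0.0574, adjusted p = 2.08e-21), near its DE level, and BUB1B at 148, 151 and 145 CPM in ETO, above its DE level (log2 difference −1.62, SE 0.0464, adjusted p = 2.57e-26).

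Transcripts of the mitochondrial genome were higher, while nuclear genes of complex I moved both ways. Of 13 transcripts encoded in mitochondria, 11 were higher and 0 lower, MT-CO3 rising from 3764 to 5511 CPM (log2 0.55), and they took 2.87% to 3.12% of counts in DE and 3.26% to 3.55% in C75. These shares moved with the groups, and their part in the other results was not tested. Nuclear-encoded subunits of complex I had 11 higher and 9 lower of 37. The higher count fell to 4 without DE replicate 1, 5 without DE replicate 3, 7 without C75 replicate 1, 6 without C75 replicate 2 and 4 without C75 replicate 3.

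In the FGF and ERK list, the ligand genes FGF4, FGF2 and FGF19 fell, and FGF8 and FGF17 rose slightly. FGF4, a ligand of the early embryo, lies on chromosome 11 at 69771016 to 69775403, on the minus strand. It was at 25.7, 29 and 26.1 CPM in DE and 1.01, 0.66 and 1.04 CPM in C75 (log2 fold change −4.88, SE 0.13, adjusted p = 4.34e-26), 49 counts over the C75 libraries against 1542 in DE. FGF2 was at 14.6, 15.5 and 17.1 CPM in DE and 2.2, 1.59 and 1.98 CPM in C75 (log2 fold change −3.03, SE 0.121, adjusted p = 3.91e-21), and FGF19 fell (log2 −1.87). FGF2 overlaps NUDT6 on the opposite strand, and whether the counting used strand is not given in the sources used here. All DE libraries lay above all C75 libraries for these ligands. By contrast, FGF17 and FGF8, ligands of the streak and endoderm stage, rose by small amounts (log2 0.25 and 0.25). FGF8 was at 50.6, 56.9 and 51.2 CPM in DE and 65.3, 55.5 and 67.1 CPM in C75, with groups that overlapped. Among feedback inhibitors and targets, SPRY4 was at 67.4, 62.7 and 64.9 CPM in DE and 117, 118 and 117 CPM in C75 (log2 fold change 0.85, SE 0.0401, adjusted p = 4.24e-19), ETV4, ETV5 and DUSP6 rose (log2 0.68, 0.61 and 0.34), and SPRY1 fell (log2 −1.32). The receptor gene FGFR1 fell (log2 −0.42). In all, 17 of 45 were higher and 19 lower, with 1 higher and 8 lower at 2-fold.

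In the BMP list, 15 of 38 were higher and 13 lower, and the ID genes, which are direct targets of BMP signals, fell as a set of 4. ID1 was at 88, 92.4 and 91.2 CPM in DE and 33.6, 30.8 and 38 CPM in C75 (log2 fold change −1.41, SE 0.0539, adjusted p = 1.17e-21), all DE libraries above all C75 libraries. ID2, ID3 and ID4 fell (log2 −0.43, −0.69 and −0.57). Antagonists moved both ways. GREM1 had 2 counts over the C75 libraries against 251 in DE, a ratio of 118 (95% counting interval 32.4 to 982). FSTL1, a secreted glycoprotein that binds BMPs, was at 562, 578 and 574 CPM in DE and 274, 278 and 264 CPM in C75 (log2 fold change −1.07, SE 0.0308, adjusted p = 4.22e-25), while BMPER and NBL1 rose from 6.01 to 16 CPM and from 133 to 273 CPM (log2 1.40 and 1.04), and NOG and CHRD rose (log2 1.83 and 1.03) from levels under 3 CPM in DE. Of ligands, GDF6 was at 1.09, 1.31 and 1.11 CPM in DE and 6.54, 5.01 and 5.38 CPM in C75 (log2 fold change 2.27, SE 0.217, adjusted p = 4.99e-11).

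WNT genes had 17 higher and 25 lower of 54, with 4 higher and 10 lower at 2-fold. FZD7, the main frizzled receptor of pluripotent cells, was at 309, 313 and 310.1 CPM in DE and 636, 636 and 658 CPM in C75 (log2 fold change 1.05, SE 0.0321, adjusted p = 2.48e-24). RSPO4, a WNT agonist, was at 2.9, 3.83 and 2.96 CPM in DE and 11.4, 11.4 and 12.2 CPM in C75 (log2 fold change 1.86, SE 0.144, adjusted p = 2.62e-13), and its receptor LGR5 rose from 100.2 to 183 CPM (log2 0.87). Their C75 libraries were all higher. Of the secreted antagonists, DKK1 rose from 14.9 to 45.9 CPM (log2 1.63) and DKK4 fell from 25.6 to 4.1 CPM (log2 −2.63). WNT5A, a ligand of the noncanonical branch, was at 4.37, 4 and 4.71 CPM in DE and 1.07, 1.81 and 1.21 CPM in C75 (log2 fold change −1.67, SE 0.186, adjusted p = 1.54e-09), lower in all. In the Notch list 7 were higher and 12 lower of 29, the ligand gene JAG1 falling (log2 −1.07) with the target HEY2 (log2 −2.27), and LFNG, which adds sugars to the Notch receptor, rising (log2 1.14). Of 20 retinoid genes, 5 were higher (3 without DE replicate 3 or C75 replicate 1) and 7 lower. CRABP1 and CRABP2, which carry retinoic acid in the cell, fell from 105 to 40.8 CPM and from 144 to 64.5 CPM, and the receptor gene RXRG rose from 15 to 38.1 CPM (log2 1.34).

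Among guidance genes, SEMA6A and SLIT2 fell and UNC5C rose, each at least 4-fold. SEMA6A, a membrane semaphorin, lies on chromosome 5 at 116443616 to 116574934, on the minus strand. It was at 166, 159.9 and 169 CPM in DE and 35.3, 32.4 and 33.5 CPM in C75 (log2 fold change −2.29, SE 0.0424, adjusted p = 9.79e-31), with no overlap. SLIT2 was at 21.4, 16.8 and 18.6 CPM in DE and 2.82, 2.75 and 2.69 CPM in C75 (log2 fold change −2.78, SE 0.113, adjusted p = 5.62e-21), and UNC5C, a netrin receptor, was at 4.04, 3.26 and 3.33 CPM in DE and 15.8, 12.4 and 16 CPM in C75 (log2 fold change 2.05, SE 0.14, adjusted p = 1.02e-14). The list of ephrin, semaphorin, plexin, SLIT and netrin genes had 25 higher and 21 lower of 67, so most members did not fall. PLXND1, a plexin, fell (log2 −1.06), and SEMA6D rose (log2 1.07).

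Of 63 integrins, laminins and matrix glycoproteins, 26 were higher and 31 lower, 5 and 13 of them at 2-fold. VCAN, the proteoglycan versican, was at 93.9, 90.9 and 95 CPM in DE and 15.2, 12.8 and 13.5 CPM in C75 (log2 fold change −2.75, SE 0.0544, adjusted p = 6.24e-30), and SPP1, osteopontin, was at 45, 46.3 and 54.2 CPM in DE and 2.99, 3.8 and 2.47 CPM in C75 (log2 fold change −3.97, SE 0.0977, adjusted p = 4.87e-27). ITGA3, the alpha chain of a laminin receptor, was at 22.6, 20 and 21.2 CPM in DE and 60.01, 61.2 and 63.3 CPM in C75 (log2 fold change 1.53, SE 0.0579, adjusted p = 8.28e-22). Versican and osteopontin were lower and ITGA3 higher in every C75 library. ITGA4, of a fibronectin and VCAM1 receptor, rose from 17.2 to 42.8 CPM (log2 1.32). Of 53 collagens and their modifying enzymes, 18 were higher and 26 lower. COL11A1, a fibrillar collagen, was at 20.4, 19.7 and 24.1 CPM in DE and 2.48, 2.31 and 2.25 CPM in C75 (log2 fold change −3.19, SE 0.116, adjusted p = 2.63e-22), and COL1A2 fell from 132 to 44.8 CPM (log2 −1.56). COL27A1, another fibrillar chain, was at 89, 78.2 and 80.5 CPM in DE and 205, 200.4 and 203 CPM in C75 (log2 fold change 1.30, SE 0.0461, adjusted p = 1.7e-22), higher in every library, and LOX, which crosslinks collagen, rose from 2.09 to 13.4 CPM (log2 2.69).

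Cadherins and junction genes had 12 higher and 29 lower of 51, with 0 higher and 11 lower at 2-fold. CTNNA2, the neural alpha-catenin, fell from 14.3 to 1.5 CPM (log2 −3.25) and CDH4 from 25.9 to 5.12 CPM (log2 −2.34), while CLDN1, a tight junction claudin, rose from 9.8 to 18 CPM (log2 0.88). In the list of keratins, actins, S100 proteins and annexins 12 were higher and 21 lower of 39. ANXA1 was at 14.4, 17.7 and 18.3 CPM in DE and 0.338, 0.88 and 0.549 CPM in C75 (log2 fold change −4.81, SE 0.17, adjusted p = 1.42e-22). The muscle actin genes ACTA1 and ACTC1 fell from 26.1 to 2.05 CPM and from 33.4 to 6.59 CPM. S100A10 was at 122, 133 and 131 CPM in DE and 46.2, 47.3 and 48.8 CPM in C75 (log2 fold change −1.44, SE 0.045, adjusted p = 4.37e-24). Both CAV1 and CAVIN1, parts of the caveolar coat, fell, CAV1 being at 22.9, 25.2 and 25.2 CPM in DE and 3.49, 3.58 and 2.75 CPM in C75 (log2 fold change −2.90, SE 0.0961, adjusted p = 2.56e-23) and CAVIN1 at 19.6, 18.8 and 20.4 CPM in DE and 1.3, 0.99 and 0.879 CPM in C75 (log2 fold change −4.21, SE 0.127, adjusted p = 1.81e-24). No DE library overlapped a C75 library for these genes.

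The list of YAP and TEAD targets, which also holds parts of the pathway itself, had 8 higher and 16 lower of 30. At 2-fold, 4 were higher and 4 lower. FOXF2 rose from 0.404 to 3.31 CPM and FJX1 from 3.57 to 8.5 CPM (log2 2.97 and 1.28). CTGF, a common reporter of YAP activity, was at 113, 118 and 119.8 CPM in DE and 49.9, 49.8 and 48.5 CPM in C75 (log2 fold change −1.24, SE 0.0427, adjusted p = 6.74e-23), lower in every library, and ANKRD1 fell from 115 to 49.9 CPM (log2 −1.21), while AMOT, which binds YAP, and MYOF rose (log2 1.06 and 1.04). Chemokine genes had 6 higher and 7 lower of 20, with 3 and 7 at 2-fold. CXCL14 was at 11.9, 12.5 and 11.4 CPM in DE and 0.845, 0.605 and 0.384 CPM in C75 (log2 fold change −4.28, SE 0.176, adjusted p = 1.02e-20). Of the receptors, ACKR3, a scavenging receptor for CXCL12, was at 148, 151 and 143 CPM in DE and 329.6, 331 and 341 CPM in C75 (log2 fold change 1.18, SE 0.0382, adjusted p = 1.15e-23), and S1PR3, for sphingosine 1-phosphate, at 224, 220.4 and 218 CPM in DE and 533, 495 and 527 CPM in C75 (log2 fold change 1.23, SE 0.0339, adjusted p = 1.26e-25). The groups were apart for these receptors and for CXCL14.

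Developmental transcription factors, a list that shares HHEX and some others with the marker lists, had 32 higher and 39 lower of 109, and 14 were 2-fold higher and 11 2-fold lower. FOXQ1, a forkhead factor, was at 14.1, 12.1 and 14.2 CPM in DE and 172, 177 and 186 CPM in C75 (log2 fold change 3.73, SE 0.0631, adjusted p = 9.62e-32). SOX21, of the SOXB2 group, was at 17.9, 16.2 and 18.1 CPM in DE and 63.3, 70.9 and 71.2 CPM in C75 (log2 fold change 1.98, SE 0.0659, adjusted p = 2.79e-23), and NKX2-1, known from thyroid, lung and forebrain, at 3.99, 3.89 and 3.23 CPM in DE and 13.8, 12.8 and 14.5 CPM in C75 (log2 fold change 1.88, SE 0.13, adjusted p = 1.31e-14). All C75 libraries were above all DE libraries. ONECUT2, known from liver and pancreas, rose from 4.76 to 14.2 CPM (log2 1.56), as did PAX2, of kidney and ear, from 1.38 to 5.1 CPM (log2 1.87). FOXA1, a paralogue of the endoderm factor FOXA2, rose from 0.732 to 2.03 CPM (log2 1.47), and KLF2 from 1.03 to 3.15 CPM (log2 1.63). Of the factors that fell, NR5A2, a nuclear receptor known from liver and pluripotent cells, was at 7.64, 8.06 and 9.57 CPM in DE and 2.99, 3.41 and 3.68 CPM in C75 (log2 fold change −1.32, SE 0.129, adjusted p = 7.29e-11), NR0B1 fell from 14.7 to 5.21 CPM (log2 −1.50) and KLF13 from 55.8 to 28.1 CPM (log2 −0.99).

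In the chromatin lists, TET1 and HDAC9 fell. DNA methylation genes had 9 higher and 3 lower of 17. TET1, which oxidises methylcytosine, was at 92, 81.7 and 81.8 CPM in DE and 41.5, 42.4 and 47.3 CPM in C75 (log2 fold change −0.96, SE 0.0522, adjusted p = 2.05e-17), lower in every library, and the reader MBD1 rose (log2 0.58). Acetyltransferases and deacetylases had 8 higher and 10 lower of 29. HDAC9 had 6 counts over the C75 libraries against 205 in DE, a ratio of 32.2 (95% counting interval 14.5 to 88.7). Imprinted genes had 11 higher (7 without DE replicate 3 or without C75 replicate 3) and 5 lower of 27. PEG10, a paternally expressed gene derived from a retrotransposon, was at 2089, 1936 and 1970 CPM in DE and 537, 534 and 530.4 CPM in C75 (log2 fold change −1.91, SE 0.0308, adjusted p = 5.12e-32). It was at 736, 743 and 723 CPM in ETO, also below DE. IGF2R, the receptor that clears IGF2, rose from 247 to 362 CPM (log2 0.55).

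Beyond the lists, the largest rises among genes with a mean of at least 5 CPM included MAMDC2, NRG1 and LRRN4. MAMDC2, an extracellular protein with MAM domains, was at 9.83, 7.54 and 8.15 CPM in DE and 76.2, 78.8 and 77.3 CPM in C75 (log2 fold change 3.18, SE 0.0736, adjusted p = 7.21e-28). NRG1, a growth factor for ERBB receptors, was at 7.64, 6.8 and 7.3 CPM in DE and 29.4, 29.8 and 32.2 CPM in C75 (log2 fold change 2.07, SE 0.0861, adjusted p = 1.32e-20). NPNT, an extracellular ligand of integrin alpha 8, was at 4.18, 3.2 and 3.44 CPM in DE and 17.9, 19.9 and 16.1 CPM in C75 (log2 fold change 2.31, SE 0.128, adjusted p = 4.44e-17). Genes entered the rankings of rises and falls only if their C75 and DE libraries did not overlap, so that separation was set by the choice. LRRN4, KIF26B and CST1 rose from 10.3 to 48 CPM, from 5.14 to 19.9 CPM and from 4.82 to 18.8 CPM. The largest falls included GNA14, a G protein alpha subunit, from 9.51 to 0.574 CPM, CHST2, a sulfotransferase, from 26.3 to 1.74 CPM, NTS, which encodes neurotensin, from 50.9 to 4.27 CPM, and KITLG, the ligand of KIT, from 20.04 to 2.05 CPM. KITLG had a log2 fold change of −3.29. Genes that took the largest added share of reads, a measure that is not corrected for length, included CER1, LEFTY2, ACTB, PKM, FLNA, HSPA8 and SLC7A5, and FLNA, which crosslinks actin, rose from 2064 to 3123 CPM (log2 0.60). The largest losses of reads were in EEF1A1, PEG10 and SERPINB9, an inhibitor of granzyme B that fell from 2518 to 1551 CPM (log2 −0.70).

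The series also asks how inhibition of oxidation compares, so C75 was tested against ETO directly. Both comparisons with DE share the DE libraries, so their values are only set side by side. In ETO against DE, 69.9% of genes were called in either direction. Directly, 1253 genes (8.84%) were at least 2-fold higher in C75 than in ETO and 2109 (14.9%) at least 2-fold lower. From the genes changed 2-fold by C75 and not called in ETO against DE, those with the largest direct difference were taken. Their ETO levels near DE and small p-values of the direct test largely follow from this choice. FOXQ1 was at 14.8, 11.3 and 12.2 CPM in ETO, within or near its DE range (log2 difference 3.80, SE 0.063, adjusted p = 2.89e-33). NRG1 was at 7.04, 7.33 and 7.65 CPM in ETO (log2 difference 2.06, SE 0.0853, adjusted p = 1.56e-21), NPR1, a natriuretic peptide receptor gene, rose with C75 from 8.55 to 29.8 CPM and was at 9.49, 7.79 and 8.54 CPM in ETO (log2 difference 1.79, SE 0.0836, adjusted p = 5.05e-20). LRAT, which esterifies retinol, rose with C75 from 20 to 55.8 CPM and differed between the inhibitors (log2 difference 1.42, SE 0.0637, adjusted p = 1.57e-20). FLVCR2, a choline transporter of brain vessels, rose from 12.6 to 36.8 CPM (log2 difference 1.45, SE 0.0745, adjusted p = 8.16e-19). On the lower side, EGFLAM, a matrix protein of synapses, fell from 18 to 5.36 CPM and was at 19, 19.7 and 18.3 CPM in ETO (log2 difference −1.83, SE 0.101, adjusted p = 6.2e-18). TMEM64 fell from 67.3 to 24.7 CPM (log2 difference −1.48, SE 0.0577, adjusted p = 2.62e-22), and S100A10 was at 124, 130 and 126 CPM in ETO (log2 difference −1.42, SE 0.0449, adjusted p = 5.64e-25). That a gene was not called in ETO does not show that ETO left it as it was.

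**Figure D4:**
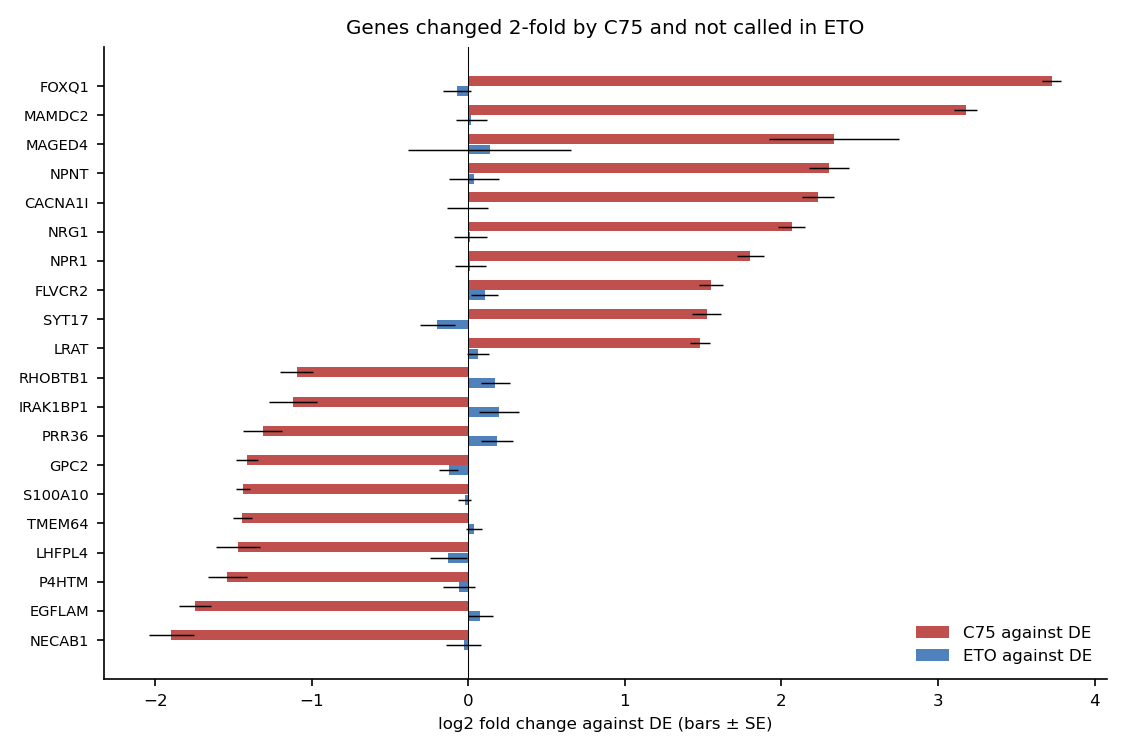
Log2 fold change against DE with its standard error for C75 (red) and ETO (blue) in the 20 genes changed 2-fold by C75, not called in ETO and with the largest direct difference. Red bars run from −1.90 (NECAB1) to 3.73 (FOXQ1), while blue bars lie between −0.20 and 0.20.

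Other named genes differed in how ETO stood against DE. SEMA6A was at 629, 629 and 637 CPM in ETO (log2 difference −4.23, SE 0.0407, adjusted p = 5.09e-40), FGF4 at 153, 139 and 148 CPM in ETO (log2 difference −7.33, SE 0.0965, adjusted p = 4e-36) and VCAN at 403, 412 and 410.5 CPM in ETO (log2 difference −4.88, SE 0.049, adjusted p = 1.28e-39), so ETO stood above DE and C75 below it in every library. For ANKRD1 and PEG10 both inhibitors were below DE, ANKRD1 being at 43.2, 43.6 and 42.2 CPM in ETO. HERPUD1 was at 26.8, 28.6 and 24.7 CPM in ETO and RPL5 at 833, 853 and 840.1 CPM in ETO, and C75 differed from ETO in both (log2 difference 1.00, SE 0.0629, adjusted p = 2.76e-16 for HERPUD1, and log2 difference −0.69, SE 0.0331, adjusted p = 1.31e-19 for RPL5).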

How the data were processed

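RNA sequencing counts per gene were deposited by the authors for 9 libraries in 1 table. Per the submitters' processing notes, HISAT2 2.1.0 and featureCounts 1.6.4 were used with GRCh38. Gene symbols all matched GENCODE 29, which gave the coordinates. The RNA selection and the strand setting of the counting are not given in the sources used.

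Genes were filtered with filterByExpr, scaled by TMM and tested by edgeR 4.0.16 (R 4.3.3) with quasi-likelihood tests, in 1 fit over the 9 libraries with no term but group, and Benjamini-Hochberg adjustment over 14177 genes. The tests were tested on simulated data. The SE, or standard error, of a log2 fold change was derived from the test, as its absolute value divided by the square root of the F statistic. CPM values are TMM-scaled, and counting intervals at 95% cover counting error only. The tested genes held 99.962% of counts, and the common biological coefficient of variation was 0.0335.

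The 46 gene lists, 5 marker lists and all rules were chosen with earlier results of these data known. Named genes were, per list, up to 4 called genes in each direction with the largest change at a mean of at least 1 CPM. To these were added the 20 largest rises and falls at a mean of at least 5 CPM without overlap between the groups. Genes without an assigned name, pseudogenes, XIST and Y-linked genes were left out of that step. Also added were the 10 largest gains and losses in CPM, and 10 genes per direction for C75 against ETO. All members of the cholesterol and glycolysis lists, PDK1 to PDK4 and FASN were named too. A further 35 genes were chosen after their values were seen. Alternatives were other scalings, other filters, DESeq2 1.42.0, a replicate block, the 6 libraries alone, each library left out and, added after seeing the data, a correction for GC content and gene length with mgcv. Replicate numbers did not pair the libraries. Some results are not reported here.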

Additional observations from a re-analysis of the deposited data

How the results depend on the processing

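Over all alternatives, genes called higher in C75 numbered 3757 to 4520 and genes called lower 4247 to 5165, those at least 2-fold higher 306 to 461 and those at least 2-fold lower 764 to 1004. Against ETO, 1088 to 1450 genes were 2-fold higher and 1889 to 2476 were 2-fold lower. DESeq2 called 3995 higher and 4247 lower. Upper-quartile scaling gave 42.1% of called genes as higher, against 49.4% in the chosen scaling, and the correction for GC content and gene length, added after seeing the data, gave 49.9%. With the replicate block, 4429 genes were higher and 4536 lower, 382 and 918 of them at 2-fold, and 1251 were higher and 2111 lower against ETO at 2-fold. Deviations of same-numbered C75 and DE libraries correlated at 0.024, 0.02 and −0.018, and not every library correlated best with its own number, so the numbers are not taken as pairs. Of 516 values of named genes, 478 kept their direction and their side of the threshold in every alternative, and 38 changed in at least 1. Of 102 counts in the lists, 88 stayed within 1.5 times and 14 did not. With upper-quartile scaling, 4 complex I genes (11 in the chosen scaling), 6 hypoxia genes (10), 7 imprinted genes (11) and 3 retinoid genes (5) were higher, and 5 DNA methylation genes (3) and 2 cholesterol synthesis genes (1) were lower. The GC correction left 1 lower chaperonin gene (4) and gave 1 higher mitosis gene and 1 higher mesoderm marker (0 for both), and DESeq2 called 7 complex I genes higher. LBR, a sterol reductase of the nuclear envelope, was not called in the chosen fit (log2 −0.00) and was higher under the GC correction (log2 0.086, adjusted p = 0.0111); the cause was not tested. Low counts limit the precision of genes under about 1 CPM.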

Other observations

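Replication-dependent histone genes, which belonged to none of the lists, stood out among gene families named by a shared symbol stem. The family was looked at after the values were seen. Of 22 tested genes whose symbol begins with HIST, 14 were higher in C75 and 0 lower, with a median log2 fold change of 0.75, and 5 were at least 2-fold higher. Their summed CPM was 78.5, 85.5 and 78.6 in the DE libraries, 161, 168 and 163 in the C75 libraries and 71, 67.5 and 70.1 in the ETO libraries. HIST1H1C, HIST1H2BK and HIST1H4I made up most of the DE and C75 sums. In ETO these 3 were lower than in DE, while 4 other members were called higher and 18 of the 22 had a positive log2 fold change, so the ETO sum does not stand for most members. HIST1H1C, a linker histone, was at 21.3, 24.1 and 23.6 CPM in DE and 50.3, 50.1 and 49 CPM in C75 (log2 fold change 1.12, SE 0.0643, adjusted p = 1.1e-16). HIST1H2BK, a core histone whose transcript is also known in a polyadenylated form, was at 21.4, 22.5 and 20.4 CPM in DE and 46.2, 48.3 and 50.3 CPM in C75 (log2 fold change 1.17, SE 0.0692, adjusted p = 2.23e-16). HIST1H4I and HIST1H3E rose as well (log2 1.21 and 1.55). Many of these genes are near-identical copies, so reads may be shared between them, and most histone transcripts lack a poly(A) tail. How the RNA was selected is not given in the sources used here, and its part in these values was not tested. The same libraries had 45 of 54 mitosis genes and 28 of 50 replication genes lower in C75.

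Other families of this kind are given beside the shares over all genes tested, 31.2% higher and 31.9% lower. Genes with the stem IL, mainly interleukins and their receptors, had 7 higher and 13 lower of 30, 8 of them 2-fold lower. RNA polymerase subunit genes with the stem POLR had 15 higher and 4 lower of 29. DDX helicases had 21 higher and 10 lower of 37, with a median log2 fold change of 0.17. Solute carriers had 111 higher and 70 lower of 267. Kinesins had 6 higher and 17 lower of 38.

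By chromosome, 10.4% of tested genes on chromosome 13 were at least 2-fold lower in C75, against 6.52% over all genes, and 1.15% of those on chromosome 19 were at least 2-fold higher, against 2.68%.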
